A study of Mus musculus with 6 samples.

Results

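The 43 genes described here act in G2 and mitosis, the last stretch of the cell cycle, in which a cell with copied DNA condenses its chromosomes, builds a spindle, separates the copies and divides. They are a list of symbols, and all 43 were found among the 32285 genes of the count tables. By role they comprise 10 mitotic entry kinases, cyclins and their partners, 4 genes of the anaphase-promoting complex (APC/C) and spindle checkpoint, 3 of the chromosomal passenger complex, 6 of the centromere and kinetochore, 11 of the spindle and microtubules, 4 of cytokinesis and 5 of chromosome structure and chromatin. They lie on 16 chromosomes.

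Counts of unique molecular identifiers (UMIs) from single cells came from 6 libraries of mouse small intestinal organoids at day 3. WT organoids, grown from stocks made from adult mice 10 weeks of age, were kept with the vehicle DMSO and no EIPA (-EIPA, n = 2) or with 5 µM EIPA (+EIPA, n = 2), an amiloride analogue. Organoids carrying a lentiviral, doxycycline-inducible Cas9 with a guide were made by infecting WT organoids and picking clones under puromycin, with the number of clones in each library not given in the sources used here. They were kept without Dox (-Dox, n = 1) or with 2 µg/mL Dox (+Dox, n = 1). All organoids hold epithelium only. All libraries are of sorted live cells, with a further gate on GFP in +Dox alone, so the sort and Dox cannot be told apart there. Below, 6 values in a row are in the order -EIPA replicate 1, -EIPA replicate 2, +EIPA replicate 1, +EIPA replicate 2, -Dox and +Dox.

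After limits on cells, 87954 cells remained, from 12083 to 18211 per library, with median depths of 11477.5 to 17020 UMIs. Levels are given in counts per 1000000 UMIs (CPM). The summed CPM of 6 immune, stromal and endothelial markers ran from 0.408 to 13.5 per library, most of it Vim in the 4 WT libraries, and Cd3e, Col1a1 and Acta2 were each under 0.04. Pairs of libraries shared 33 to 78 cell barcodes.

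Cells were clustered without cell cycle genes, the 43 genes among them, and without further genes that correlated with the 43 in these data. Clusters were named from markers. Clusters 2, 5 and 7 took the stem name (19915 cells, led by Olfm4, Clca3b and Lgr5). Clusters 0, 1 and 3 carried 4 or 5 of 7 progenitor markers above the other cells but too few among their leading genes for a name, and are given here as the progenitor-marker clusters. Cluster 11 was secretory progenitor-like (2225 cells, led by Dll1, Sox4 and Atoh1). Goblet-like, Paneth-like, enteroendocrine-like (EEC) and tuft-like clusters were joined as mature secretory-like cells, and 5 clusters were enterocyte-like. The 7 progenitor markers together stood at 3493 to 3929 CPM in the progenitor-marker clusters and 4562 to 5650 CPM in enterocyte-like cells.

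In the crypt of the small intestine, Lgr5-positive stem cells and the progenitors above them divide, and most differentiated absorptive and secretory cells have left the cell cycle. Genes of G2 and mitosis are largely silent in resting cells and in G1 and peak together late in the cycle. Promoters of this program are known to hold CCAAT boxes, bound by NF-Y, and a cell cycle genes homology region (CHR, TTTGAA or TTTAAA), through which the DREAM and B-MYB-MuvB complexes repress or activate them, and FOXM1 joins the latter. E2F sites are known from genes of DNA replication.

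RefSeq promoter windows of GRCm38.p6, from 250 bases before to 50 after a start, matched 39 of the 43 genes (42 windows). TTTGAA or TTTAAA, read on both strands, was present in 36 of the 42 windows (85.7%), in 27.6% of all 32851 windows, and in 20.1% of the windows of genes at 5 CPM or more. TTTGAA alone was in 73.8% of the members' windows and 17.9% of all, and TTTAAA, which is its own reverse complement, in 26.2% and 13.2%.

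At least 2 CCAAT stood in 59.5% of the members' windows against 11.7% of all, and both features together in 52.4% against 3.13%. Other genes of the cycle held these letters as well. Among 48 windows of other G2 and mitosis genes 62.5% had TTTGAA or TTTAAA, 39.6% had at least 2 CCAAT and 31.2% had both, and among 43 windows of S phase genes these were 27.9%, 44.2% and 11.6%. TTTGGCGC or TTTCGCGC, forms of the E2F site read on both strands, was in 1 window, that of Cdk1 (2.38%), in 0.813% of all windows and in 25.6% of those of S phase genes. GGCGG placed 4 bases before TTTGAA, a known tandem of the CHR with a second element, was found in the windows of Cenpf and Cks1b (4.76%) and in 0.0365% of all. These letters are matches in a window, not measured binding.

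The 200 bases before the start are given for the 6 genes named by rule throughout, since they show how the letters are placed where they occur. Of the 42 such stretches, 22 held TTTGAA or TTTAAA, 33 at least 1 CCAAT and 8 neither. Shares over all promoters were not computed at this length. Each of the 6 printed stretches holds both, which many of the 42 do not. The CCAAT box and both forms of the CHR are in capitals, on whichever strand they were read. Cdk1, the kinase that drives entry into mitosis, lies at chr10:69352913-69353112 on the minus strand. Ccnb1, the cyclin that activates Cdk1 for mitosis, lies at chr13:100786487-100786686 on the minus strand. Plk1, a kinase that acts from centrosome maturation to cytokinesis, lies at chr7:122159235-122159434 on the plus strand. Top2a, which untangles DNA, lies at chr11:99024190-99024389 on the minus strand. Mki67, which coats mitotic chromosomes, lies at chr7:135716380-135716579 on the minus strand. Prc1, which bundles microtubules of the spindle midzone, lies at chr7:80294276-80294475 on the plus strand, for the second of its 2 starts. The 200 bases before its first start, at chr7:80294251-80294450, held 1 CCAAT and no whole TTTGAA or TTTAAA. They end within the TTTGAA of the printed stretch, and the longer window of the first start holds 1 TTTGAA.
Cdk1: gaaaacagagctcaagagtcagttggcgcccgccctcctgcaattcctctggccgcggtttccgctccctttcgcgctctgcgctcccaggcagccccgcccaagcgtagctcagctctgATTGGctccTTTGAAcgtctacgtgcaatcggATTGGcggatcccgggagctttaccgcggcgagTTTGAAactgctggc
Ccnb1: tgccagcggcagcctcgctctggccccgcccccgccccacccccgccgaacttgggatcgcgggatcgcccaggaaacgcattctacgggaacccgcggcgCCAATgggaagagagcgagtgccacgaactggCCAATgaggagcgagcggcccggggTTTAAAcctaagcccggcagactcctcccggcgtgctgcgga
Plk1: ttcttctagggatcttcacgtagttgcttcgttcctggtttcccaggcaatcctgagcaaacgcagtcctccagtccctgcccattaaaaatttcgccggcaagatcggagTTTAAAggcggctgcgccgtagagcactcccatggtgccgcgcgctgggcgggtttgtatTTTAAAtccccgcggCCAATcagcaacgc
Top2a: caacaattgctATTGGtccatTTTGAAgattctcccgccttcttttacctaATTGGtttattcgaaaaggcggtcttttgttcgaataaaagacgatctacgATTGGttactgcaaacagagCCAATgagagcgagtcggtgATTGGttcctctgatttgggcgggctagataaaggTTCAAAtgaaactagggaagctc
Mki67: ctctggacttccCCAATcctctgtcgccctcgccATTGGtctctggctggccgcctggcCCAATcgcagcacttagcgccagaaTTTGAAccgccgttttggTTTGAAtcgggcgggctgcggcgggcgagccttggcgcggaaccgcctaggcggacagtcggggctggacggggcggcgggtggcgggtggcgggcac
Prc1: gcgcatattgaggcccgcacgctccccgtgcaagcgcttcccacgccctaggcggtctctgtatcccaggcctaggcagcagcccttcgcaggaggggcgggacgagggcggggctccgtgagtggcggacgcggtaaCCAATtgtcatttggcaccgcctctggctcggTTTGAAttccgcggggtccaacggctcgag
In Cdk1, Ccnb1, Plk1, Top2a and Prc1 the TTTGAA or TTTAAA nearest the start begins 15, 42, 29, 23 and 30 bases before it, and in Mki67 98 bases before it. These distances are from the RefSeq starts. Another annotation (GENCODE) puts the 5′ ends of Cdk1, Ccnb1 and Prc1 at 69352938, 100786570 and 80294450, inside the stretches printed. The CCAAT boxes of Cdk1 stand 32 bases apart, and those of Top2a 20 to 51 bases apart.

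Which cells held the program was asked first, across classes and in each library. The 43 genes together stood at 5963, 5259, 5965, 5660, 6239 and 5615 CPM in stem-like cells, the highest of the classes in every library but -EIPA replicate 2. They stood at 5577, 5623, 4765, 5078, 5422 and 4505 CPM in the progenitor-marker clusters and at 5420, 5634, 4736, 5151, 6215 and 5105 CPM in secretory progenitor-like cells, ranges that overlap that of stem-like cells. Mature secretory-like cells held 2632, 2737, 2851, 2382, 3360 and 2535 CPM and enterocyte-like cells 1390, 2042, 1556, 1401, 1884 and 1291 CPM. In every library stem-like cells, the pooled progenitor-marker clusters and secretory progenitor-like cells were above the mature secretory-like cells, and these above the enterocyte-like cells. Of the pooled clusters, cluster 1 held 1899 to 3576 CPM. It was below the mature secretory-like cells in every library but -EIPA replicate 2. The classes come from clusters of the same cells, so the differences are given without a test. Unnamed clusters 12, 13 and 16 and cluster 18, which took a regenerative name, were in no class. Over the 6 libraries they held medians of 5048, 4541, 5214 and 3383 CPM.

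**Figure D1:**
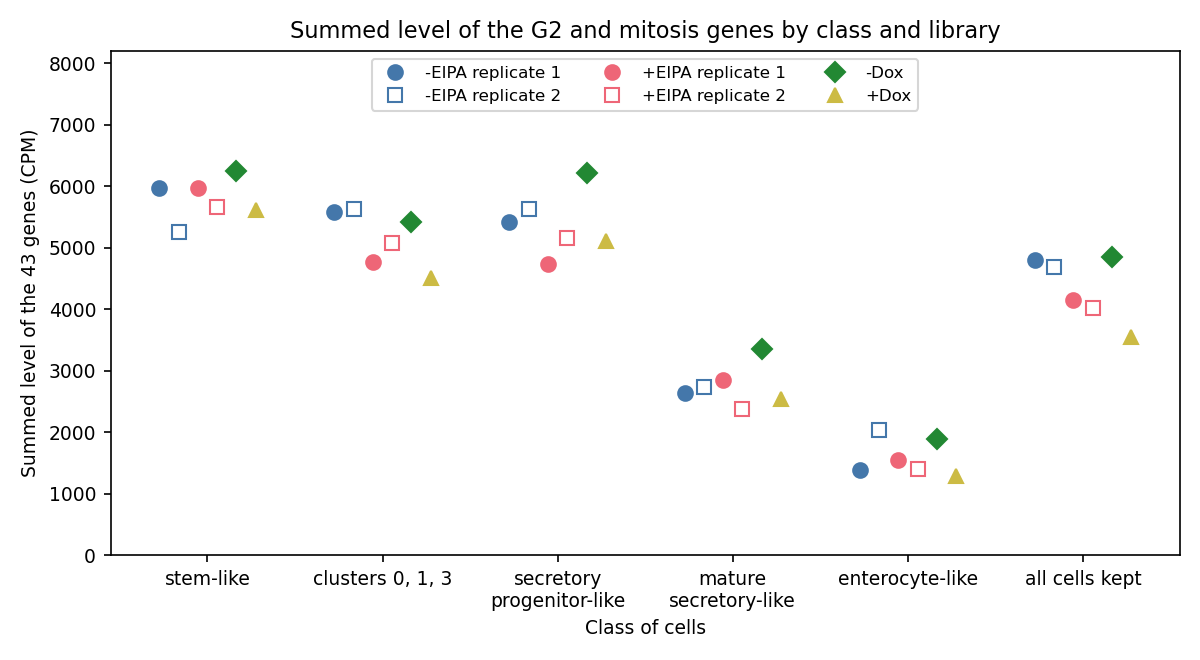
Summed level of the 43 genes in CPM (vertical axis, from 0) in each class of cells and over all cells kept, with 1 point per library. Stem-like cells lie between 5259 and 6239 CPM and enterocyte-like cells between 1291 and 2042 CPM, and over all cells kept both +EIPA libraries lie below both -EIPA libraries and +Dox below -Dox.

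Among the mature secretory types the levels overlapped. Paneth-like cells, which make antimicrobial peptides, ran from 2243 to 3444 CPM over the 6 libraries and Goblet-like cells from 1777 to 2985. EEC-like cells ran from 2678 to 3626 and tuft-like cells from 2324 to 3880 CPM. In mature secretory-like cells, EEC markers summed to at least 7150 CPM per WT library, but to 591 (-Dox) and 849 CPM (+Dox). Tuft markers summed to at least 219.8 CPM per WT library, but to 102 (-Dox) and 39.2 CPM (+Dox). The EEC-like and tuft-like names are therefore less sure in -Dox and +Dox. Called doublets bore on the differentiated classes. Without them the median over libraries was 1678 CPM in mature secretory-like cells in place of 2685, and 1022 CPM in enterocyte-like cells in place of 1479, while stem-like cells kept 5783 CPM in place of 5811. When cell cycle genes were kept in the clustering, the cells that took the stem name held 2078 CPM, the progenitor-marker clusters 2939 CPM and mature secretory-like cells 2977 CPM in the median, so the order of the classes turned under that choice.

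The mitotic entry genes gave 14.1% to 15.4% of the summed level in stem-like cells. Cks2, a small Cdk-binding protein, had the highest level of this group over all cells, at 186, 220, 170, 183, 192 and 140 CPM. Cdk1 stood at 119, 113, 125, 132, 117 and 112 CPM in stem-like and at 19.5, 37.9, 22.3, 22.8, 31.6 and 15.1 CPM in enterocyte-like cells, a ratio of 5.70 in the median over libraries. Ccnb1 stood at 67.7, 52.4, 67.1, 60.1, 67.7 and 57.7 CPM in stem-like cells. Enterocyte-like cells held less of it, at 10.1, 19.2, 11.0, 9.42, 17.1 and 7.5 CPM. Plk1 followed the same order, with 63.4, 53.5, 64.7, 55.2, 59.5 and 50.6 CPM in stem-like and 9.13, 15.0, 10.5, 8.13, 12.4 and 5.79 CPM in enterocyte-like cells.

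Ube2c, the APC/C's ubiquitin-conjugating enzyme, led the checkpoint group over all cells, at 269, 266, 237, 251, 215 and 178 CPM. Birc5 (survivin) led the chromosomal passenger complex, which corrects chromosome attachments, at 167, 194, 142, 152, 186 and 131 CPM. Cenpa, the histone H3 variant that marks centromeres, had the highest mean of its group over the 6 libraries, close to that of Cenpf (109.3 and 108.9 CPM over all cells), and stood at 95.3, 111, 80.2, 92.4, 162 and 116 CPM. Cenpf was above it in all 4 WT libraries. Cenpa was higher in both CRISPR libraries than in any WT library, and the construct, the clones and the preparation cannot be told apart there.

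The chromatin genes were the largest share of the stem-like sum, 38.4% to 40.7%. Hmgb2, a DNA-bending chromatin protein, alone stood at 939, 1041, 819, 846, 1035 and 661 CPM over all cells, the highest of the 43. Top2a stood at 354, 266, 373, 337, 397 and 384 CPM in stem-like cells. In enterocyte-like cells it stood at 39.3, 66.6, 44.5, 35.6, 80.3 and 38.0 CPM. Mki67 had 286, 201, 268, 234, 300 and 277 CPM in stem-like and 33.8, 55.8, 31.5, 23.8, 64.7 and 26.8 CPM in enterocyte-like cells. Prc1 led the cytokinesis group, at 107, 92.3, 104, 103, 123 and 119 CPM in stem-like cells. Each UMI counts the 3′ end of 1 RNA molecule whatever its length, so these CPM were not divided by length.

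Gene by gene the order of the classes was shared. In all 6 libraries 42 of the 43 genes were higher in stem-like than in enterocyte-like cells, as were 52.8% of all genes with 20 UMIs or more in each library, with a median ratio of 6.42. Relative to mature secretory-like cells 43 of 43 were higher (35.6% of all genes), with a median ratio of 2.36. Top2a had the highest ratio to enterocyte-like cells (8.70, from 3.99 to 10.1). Tubb4b, a β-tubulin used by many cells outside mitosis, had the lowest (1.07, from 0.785 to 1.32), at 676, 508, 667, 543, 487 and 458 CPM in stem-like and 512, 464, 643, 537, 443 and 584 CPM in enterocyte-like cells. Hjurp, the chaperone that loads Cenpa, came next with 1.37 (1.01 to 1.82). Its levels were 88.3, 68.3, 75.5, 70.2, 90.4 and 78.9 CPM in stem-like and 70.6, 67.8, 54.5, 49.6, 66.5 and 43.3 CPM in enterocyte-like cells.

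**Figure D2:**
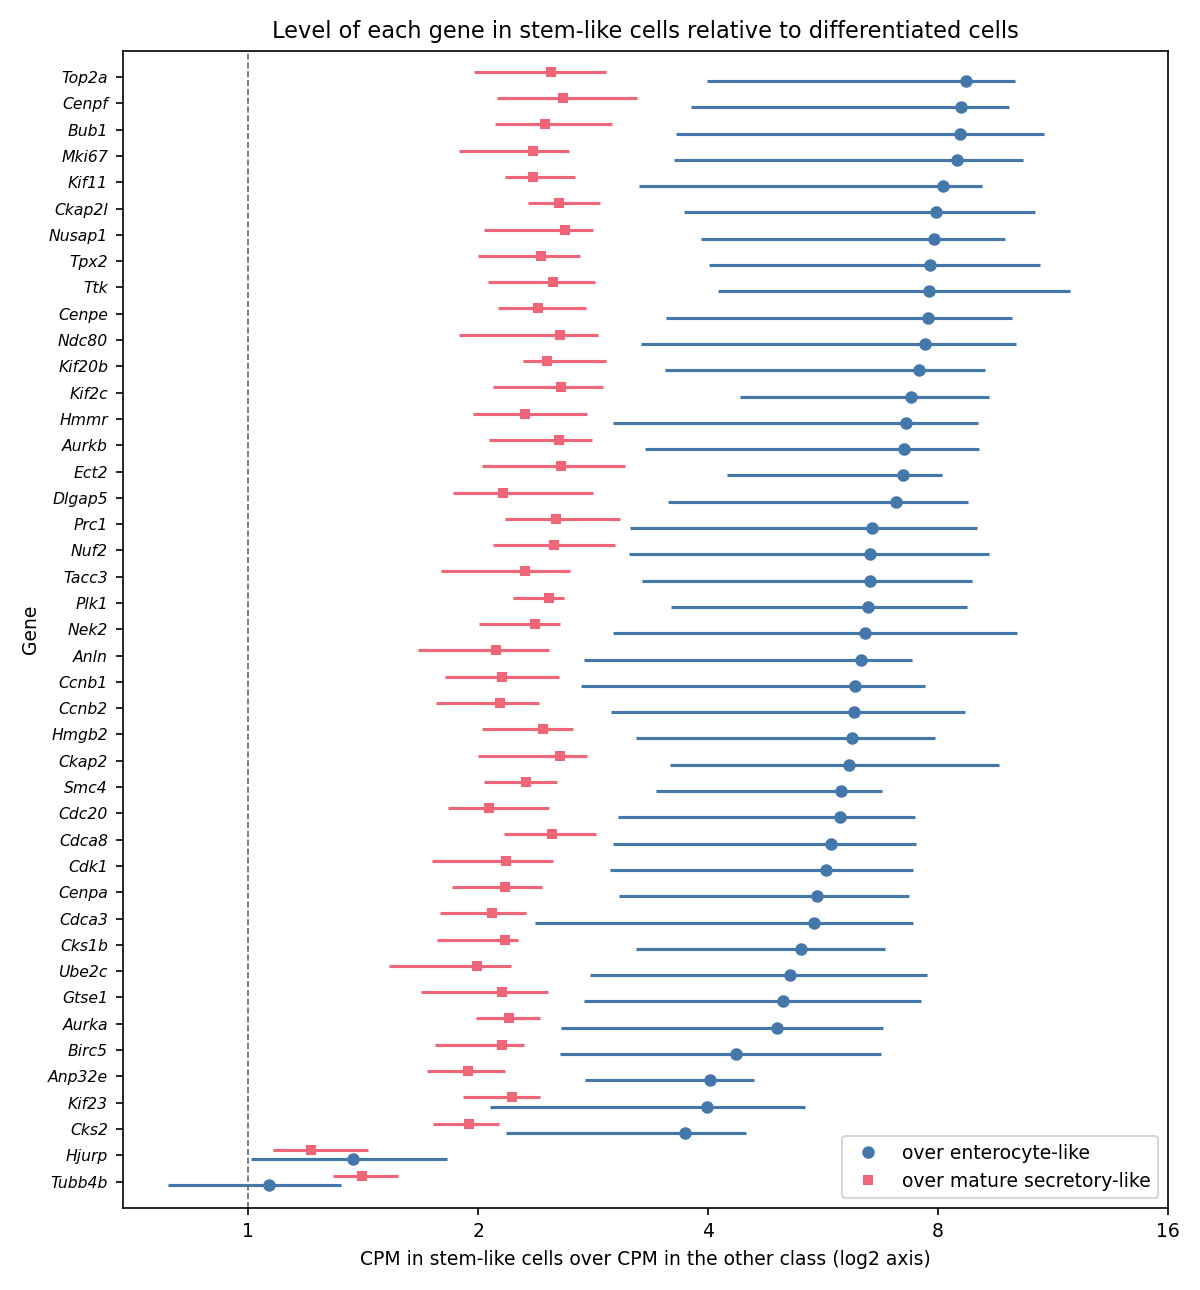
CPM of each gene in stem-like cells divided by its CPM in enterocyte-like (circles) or mature secretory-like cells (squares), on a log2 axis, with the median of 6 libraries as the point and their range as the line. Tubb4b and Hjurp lie near 1 against enterocyte-like cells, and the highest median is that of Top2a at 8.70.

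Between stem-like cells, the progenitor-marker clusters and secretory progenitor-like cells the genes did not all follow the sum. Relative to stem-like cells, 20 of 43 genes were lower in the progenitor-marker clusters in all 6 libraries, a share near that of all genes (44.3%), and 1, Tubb4b, was higher (median ratio 1.24, 24.2% of all genes higher). The lowest ratio was that of Ttk, a spindle checkpoint kinase (0.625). Of secretory progenitor-like cells, 12 genes were lower than in stem-like cells in all 6 libraries (21.2% of all genes), with the lowest ratio in Nuf2, an outer kinetochore protein (0.671). The 1 gene that was higher (18.3% of all genes) was Ccnb2, a B-type cyclin (1.10, from 1.03 to 1.43). Mki67 was at 0.730 of its stem-like level in the progenitor-marker clusters and at 0.878 in secretory progenitor-like cells.

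Clusters of 1 class also differed from each other. Cluster 1, in which 3 enterocyte markers were also above the other cells, held 2560, 3576, 1991, 2082, 2914 and 1899 CPM of the 43 genes, below cluster 0 (6314 to 7127 CPM) and cluster 3 (5235 to 6358 CPM) in every library. Cluster 3 was below cluster 0 in each library as well. Between these clusters 6 genes were higher (19.2% of all genes) and 30 lower (53.3% of all genes) in cluster 3 in all 6 libraries. The 6 higher were Tubb4b (ratio 1.22), Cks2 (1.22), Cdk1 (1.17), Ube2c (1.16), Cdc20 (1.16) and Cks1b (1.05).

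The lowest ratios of cluster 3 to cluster 0 were those of Mki67 (0.434), Anln, an actin- and septin-binding protein of the cleavage furrow (0.487), and Nek2, a centrosome kinase (0.493). Among the stem-like clusters, cluster 7 was below cluster 2 in 42 of 43 genes in all 6 libraries, as it was in 50.3% of all genes, from a ratio of 0.394 for Mki67 and 0.409 for Anln to 0.902 for Cdk1, and Cks2 (0.955) was the 1 gene that was not. Cluster 2 has more UMIs per cell than cluster 7 (1.20 and 0.887 of their libraries' medians).

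How many cells held the program was asked after each cell was thinned to 4000 UMIs, with cells under that depth left out (4.06% to 9.36% per library). A cell was counted when at least 5 of the 43 genes had a UMI. That share was 79.3%, 70.0%, 80.2%, 72.2%, 79.9% and 67.2% of stem-like cells. It was 66.0%, 72.1%, 66.2%, 60.0%, 70.4% and 61.2% of secretory progenitor-like cells, and 71.5%, 78.3%, 64.8%, 67.8%, 72.4% and 57.5% of the progenitor-marker clusters. The order of these 3 classes changed between libraries.

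Enterocyte-like cells, most of which should lack the program, gave 13.6%, 29.1%, 13.7%, 11.2%, 23.1% and 9.17%. They set the level against which the other classes are read. The depth left 1577 of 1795, 1422 of 1789, 2205 of 2501, 2236 of 2432, 2810 of 3358 and 3087 of 3136 cells. The part of the class left out thus differed between libraries. Of the class, 3.87% to 11.6% also had other G2 and mitosis genes and S phase genes past the gates used further on, most in -EIPA replicate 2. Mature secretory-like cells were above enterocyte-like cells in each library, at 33.7%, 42.2%, 36.6%, 28.9%, 44.7% and 29.8%. Without thinning the medians over libraries were 94.8% in stem-like and 54.6% in enterocyte-like cells. Over all cells kept, the share was 60.5% (95% exact binomial interval 59.6 to 61.4) and 64.9% (64.2 to 65.7) in the -EIPA libraries, 54.7% (53.8 to 55.6) and 50.1% (49.3 to 50.9) in the +EIPA libraries, 63.1% (62.4 to 63.9) in -Dox and 40.8% (39.9 to 41.7) in +Dox. Both +EIPA libraries were below both -EIPA libraries, and with 2 libraries against 2 no exact permutation test can reach the threshold. The intervals cover counting error only.

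Cells were then gated by genes that are not among the 43, namely at least 3 of 58 other G2 and mitosis genes and at least 5 of 46 S phase genes detected at 4000 UMIs. Cells past both gates held the 43 genes at 6657, 6245, 6219, 6323, 6735 and 6356 CPM, and cells past neither at 1039, 1156, 1052, 919, 1107 and 888 CPM. Cells past the S phase gate only held 1989, 1884, 1965, 1807, 1882 and 1370 CPM. At least 5 of the 43 genes were detected in 34.6% to 52.7% of the S-gate-only cells and in 7.35% to 24.5% of the cells past neither gate. Ndc80, which binds microtubules at the kinetochore, had a median of 1.09 CPM past neither gate and 27.9 CPM past both, and Mki67 15.7 and 299 CPM. The medians were closer for Tubb4b (353 and 681 CPM) and Hjurp (52.9 and 84.0 CPM).

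The shares of all cells kept that passed the gates differed between the conditions. Past both gates were 44.6% and 45.9% in the -EIPA libraries, 39.8% and 36.1% in the +EIPA libraries, 46.5% in -Dox and 30.8% in +Dox. Past neither were 32.4%, 26.4%, 38.6%, 41.6%, 29.5% and 47.7%. In both-gate cells the level was 6657 and 6245 CPM in the -EIPA and 6219 and 6323 CPM in the +EIPA libraries, so the groups overlapped. The classes were not alike in this. In the progenitor-marker clusters the shares past both gates did not overlap (51.3% and 56.8% in -EIPA, 45.2% and 48.6% in +EIPA) and the levels did (6994 and 6547 CPM against 6480 and 6611 CPM). In stem-like cells both overlapped, with shares of 69.05% and 57.2% against 70.07% and 61.55% and levels of 6456 and 6276 against 6327 and 6426 CPM. In secretory progenitor-like cells the shares past both gates overlapped and the levels did not, with shares of 38.6% and 45.6% in -EIPA and 39.9% and 39.5% in +EIPA and levels of 7462 and 7459 CPM in -EIPA against 6349 and 7014 CPM in +EIPA. In S-gate-only cells the Dox libraries also differed in level, at 1882 CPM in -Dox and 1370 CPM in +Dox, with shares of 14.4% and 13.3%. The gates and the 43 genes belong to 1 program and are read from the same cells, so this splits the sums into cells and level and is no independent measure of either.

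**Figure D3:**
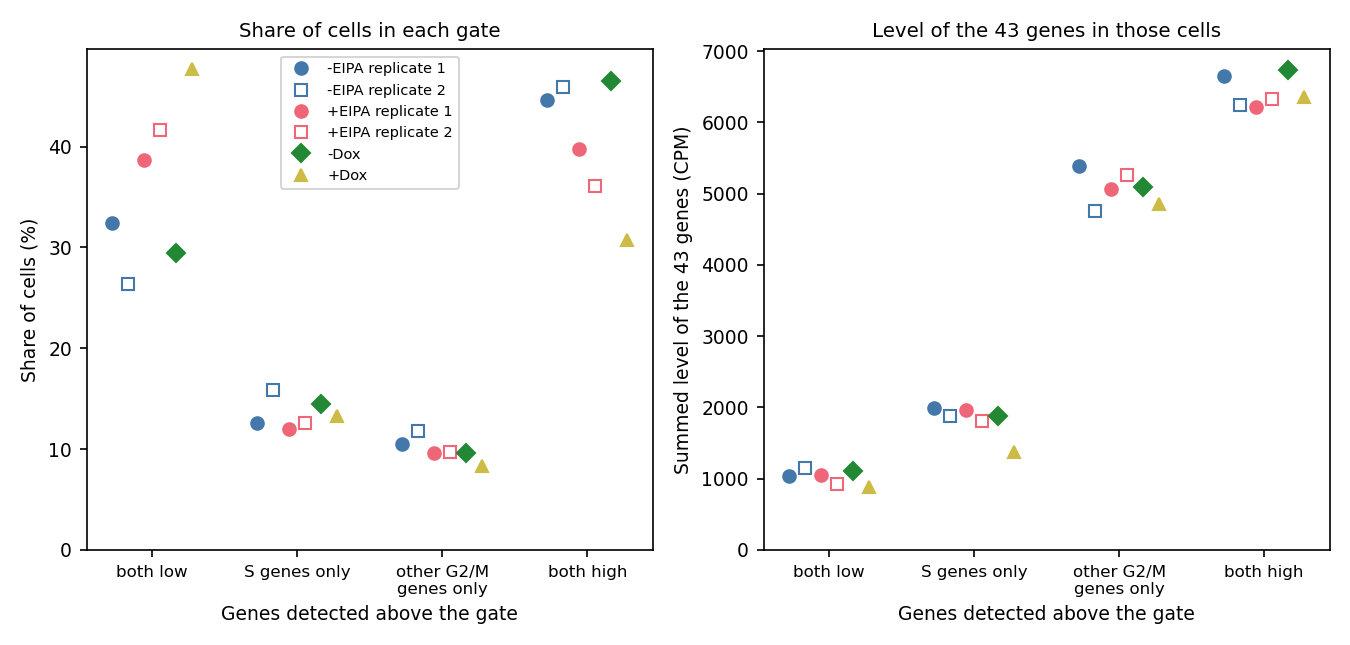
Left, share of all cells kept (%) in each of the 4 combinations of the gates on other G2/M genes and on S phase genes. Right, summed level of the 43 genes (CPM) in the same cells. Each point is 1 library. The share past both gates runs from 30.8% in +Dox to 46.5% in -Dox, while the level in these cells stays between 6219 and 6735 CPM.

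The effect of EIPA was tested on counts summed per library (n = 2 per group) with edgeR's quasi-likelihood test, adjusted over all genes. The main fit does not pair libraries by replicate number. Over all cells kept, the genes summed to 4793 and 4686 CPM in the -EIPA and 4149 and 4025 CPM in the +EIPA libraries. For 35 of 43 genes both +EIPA values were below both -EIPA values, an order that held for 32.6% of all genes with 20 UMIs or more, and for 0 genes the reverse held (13.7% of all genes). None of the 43 passed an adjusted p of 0.05 (0% of 15890 genes did), 9 had an unadjusted p under 0.05 (10.1% of all genes), and DESeq2 called 2, both lower (0.293% of its genes were called lower). Their median log2 fold change was -0.17, beside 0.00 for all genes, with 39 below 0.

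The 3 genes with the lowest p over all cells take part in the spindle or in mitotic entry. Hmmr, a spindle protein also known as a hyaluronan receptor, stood at 56.2 and 56.4 CPM without and 42.1 and 41.7 CPM with EIPA (log2 fold change -0.34 ± 0.07 SE, adjusted p = 0.265). Cdca3, which promotes mitotic entry, stood at 115 and 120 against 90.03 and 87.5 CPM (-0.32 ± 0.07, adjusted p = 0.297). Ckap2l, a spindle protein, stood at 28.3 and 27.2 against 22.5 and 20.5 CPM (-0.28 ± 0.07, adjusted p = 0.306). For each the groups did not overlap. Taking the replicate number as a block pairs libraries that share a number and leaves 1 residual degree of freedom. With that block edgeR called 5 genes lower (0.812% of all genes were called lower). They were these 3, at adjusted p of 0.032, 0.038 and 0.046, and Ccnb2 and Kif20b.

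The shares of the classes differed as well. The progenitor-marker clusters made up 37.7% and 35.2% without EIPA against 30.8% and 29.3% with it, and enterocyte-like cells 14.2% and 9.82% against 19.0% and 17.1%. In sums over all cells, fewer cells of a class of higher level and less RNA of these genes per cell cannot be told apart. The classes were therefore fitted separately.

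In stem-like cells the difference was small and of the other sign. The summed level was 5963 and 5259 CPM in -EIPA against 5965 and 5660 CPM in +EIPA, so the groups overlapped. The median log2 fold change was 0.10 (all genes 0.00), with 37 of 43 above 0. None passed (0% of 13093 genes), 6 had an unadjusted p under 0.05 (3.85% of all genes) and DESeq2 called 0 (0.263% of its genes). The groups did not overlap for 8 genes higher with EIPA (7.33% of all genes) and 2 lower (27.6%). The stem-like clusters were not alike in the summed level. Cluster 5 had 5127 and 4225 CPM in -EIPA against 5811 and 5082 CPM in +EIPA. Cluster 2 had 6719 and 6243 against 6559 and 6388 CPM, and cluster 7 had 5036 and 4404 against 4830 and 4689 CPM. The groups overlapped in each, and the part of each cluster was not tested.

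Cks1b, the paralogue of Cks2, stood at 107 and 109 against 122 and 123 CPM in stem-like cells (0.25 ± 0.07, adjusted p = 1.00 by edgeR). Ect2, which activates RhoA at the cleavage furrow, stood at 32.9 and 34.3 against 38.4 and 38.1 CPM (0.25 ± 0.07), and Ttk at 19.2 and 18.2 against 22.0 and 20.6 CPM (0.25 ± 0.08). In these 3 genes both +EIPA libraries were above both -EIPA libraries. With the replicate block edgeR called 6 genes higher (2.01% of all genes): Cks1b (adjusted p = 0.014), Ect2 (0.040), Ube2c, Ckap2, Cdk1 and Top2a.

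The sign was opposite in the progenitor-marker clusters. Their summed level was 5577 and 5623 CPM in -EIPA against 4765 and 5078 CPM in +EIPA. The log2 fold changes had a median of -0.12, and 39 of 43 were below 0 (all genes 0.00). None passed (0.00739% of 13535 genes, 1 gene, did), 4 had an unadjusted p under 0.05 (7.05%), and DESeq2 called 0 (1.14%). Both +EIPA values were below both -EIPA values in 30 genes (32.4% of all genes).

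The leading genes there were those of all cells. Ckap2l stood at 32.0 and 32.0 against 24.0 and 25.2 CPM (-0.29 ± 0.08, edgeR adjusted p = 0.455). Cdca3 stood at 148 and 158 against 117 and 125 CPM (-0.26 ± 0.09, adjusted p = 0.678), and Hmmr at 67.5 and 70.1 against 51.1 and 56.9 CPM (-0.26 ± 0.10, adjusted p = 0.694). With the replicate block edgeR called 5 genes lower (1.76% of all genes), these 3 at adjusted p of 0.025, 0.015 and 0.025, with Ccnb2 and Kif20b.

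Secretory progenitor-like cells had summed levels of 5420 and 5634 CPM in -EIPA against 4736 and 5151 CPM in +EIPA. The median of the log2 fold changes was -0.13, with 37 of 43 genes below 0 (all genes 0.00). None passed (0% of 10697 genes), 5 had an unadjusted p under 0.05 (4.68%) and DESeq2 called 0 (0.105%). Both +EIPA values were below both -EIPA values in 20 genes (22.6% of all genes). Nek2 stood at 23.8 and 24.4 against 18.7 and 15.6 CPM (-0.46 ± 0.16, edgeR adjusted p = 0.904). Tpx2, which activates Aurora A on the spindle, stood at 79.1 and 82.8 against 56.2 and 65.4 CPM (-0.35 ± 0.13, adjusted p = 0.9495). Kif20b, a kinesin of late mitosis, stood at 69.5 and 71.7 against 41.4 and 57.7 CPM (-0.44 ± 0.17, adjusted p = 0.956), and was the 1 gene called with the replicate block (lower, adjusted p = 0.028, 0.524% of all genes lower). For these 3 the groups did not overlap. Called doublets were 13.9% to 25.8% of the class in the WT libraries. Without them its summed level was 5178 and 5676 CPM in -EIPA against 4615 and 5205 CPM in +EIPA. The groups then overlapped.

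In mature secretory-like cells the groups overlapped, at 2632 and 2737 CPM in -EIPA against 2851 and 2382 CPM in +EIPA. The median log2 fold change was 0.07 with 30 of 43 above 0, and it turned to -0.03 under scaling by library size and to -0.01 in clusters without batch correction. None passed (0% of 13929 genes), 2 had an unadjusted p under 0.05 (4.06%), and DESeq2 (0.455% of its genes) and the block (1.67%) called 0. The groups did not overlap for 3 genes higher with EIPA (6.97% of all genes) and 2 lower (25.8%). Without called doublets, which were 21.2% to 24.7% of the class in the WT libraries, the summed level was 1493 and 1472 CPM in -EIPA against 1776 and 1580 CPM in +EIPA and the groups no longer overlapped. The median log2 fold change was then 0.41 with 42 of 43 above 0, 21 genes had an unadjusted p under 0.05 (4.94% of all genes) and edgeR called 0 (0% of 13127 genes). Top2a stood at 120 and 116 against 149 and 122 CPM (0.29 ± 0.10), Gtse1, a microtubule-associated protein of S and G2, at 3.30 and 2.53 against 4.48 and 3.65 CPM (0.59 ± 0.22), and Anln at 9.07 and 8.81 against 9.77 and 10.2 CPM (0.27 ± 0.14), each with an edgeR adjusted p of 1.00.

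In enterocyte-like cells the result turned on 1 library. The summed level was 1390 and 2042 CPM in -EIPA against 1556 and 1401 CPM in +EIPA, and -EIPA replicate 2 stood apart. Cluster 9, which had 2948 CPM in that library, was 635 of its 1789 enterocyte-like cells, against 435 of 1795 in -EIPA replicate 1 and 573 of 2501 and 528 of 2432 in the +EIPA libraries. Cluster 4, of lower level, was 662 and 620 cells of the class in -EIPA and 1099 and 1146 in +EIPA. The median log2 fold change was -0.35 with 41 of 43 below 0 (all genes -0.04). None passed (0.00812% of 12320 genes, 1 gene, did), 1 had an unadjusted p under 0.05 (14.2%), and DESeq2 (1.83%) and the block (3.79%) called 0. Both +EIPA values were below both -EIPA values in 11 genes (38.6% of all genes). Without -EIPA replicate 2 the median was 0.11 with 30 genes above 0, and without -EIPA replicate 1 it was -0.69 and edgeR called 11 genes lower (1.69% of all genes). A fit without 1 library leaves 1 of its group, which has no spread of its own and is assumed to vary like the other group, so calls from such fits are not independent support.

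Nek2 stood at 3.81 and 6.16 against 2.89 and 2.83 CPM in enterocyte-like cells (-0.66 ± 0.27, edgeR adjusted p = 0.344). Tubb4b stood at 512 and 464 against 643 and 537 CPM (0.40 ± 0.17, adjusted p = 0.360), with a sign opposite to that of 41 genes. Kif20b stood at 10.6 and 20.8 against 8.84 and 9.21 CPM (-0.66 ± 0.29, adjusted p = 0.371). The share of cells with the program in this class was also highest in -EIPA replicate 2 (29.1%), which held the fewest enterocyte-like cells (9.82%) and the highest share of called doublets (14.3%, against 9.39% to 13.8% elsewhere). Without called doublets the summed level of the class was 989 and 1282 CPM in -EIPA against 1056 and 913 CPM in +EIPA, so that -EIPA replicate 2 was lower than with them but still the highest. The median log2 fold change was then -0.65 with 41 of 43 below 0, 19 genes had an unadjusted p under 0.05 (21.3% of all genes) and edgeR called 0 of the 43 (0.101% of 11887 genes).

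**Figure D4:**
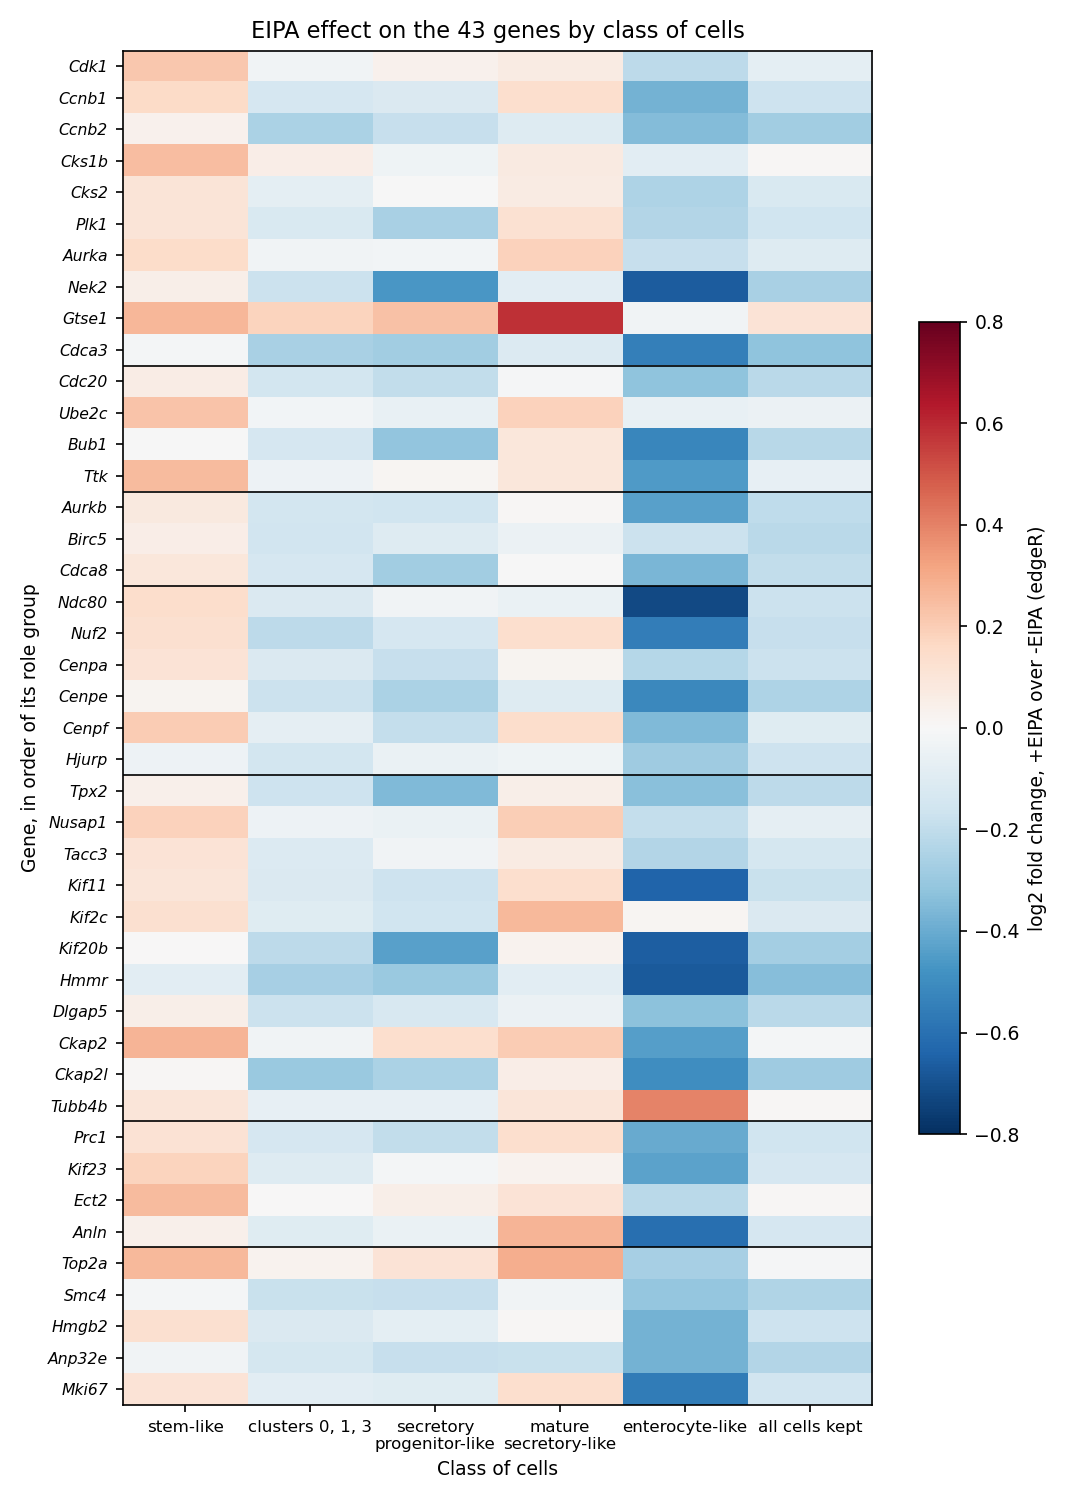
log2 fold change of +EIPA over -EIPA for each gene (rows, by role group) in each class of cells (columns), from edgeR with 2 libraries per group. Red is higher and blue lower with EIPA. Stem-like cells are mostly red (37 of 43 above 0) and enterocyte-like cells mostly blue (41 below 0), and no cell of the plot passed an adjusted p of 0.05.

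Whether EIPA acted differently between classes was tested as an interaction within libraries. Between secretory progenitor-like and stem-like cells, 1 of 43 genes passed, and 0.203% of 12785 genes did (3 of them lower). This was Cenpf, a kinetochore and nuclear matrix protein of G2. In stem-like cells it stood at 175 and 148 CPM in -EIPA against 177 and 178 CPM in +EIPA. In secretory progenitor-like cells it stood at 163 and 172 against 125 and 156 CPM, and the difference of the effects was -0.41 ± 0.09 on the log2 scale (edgeR adjusted p = 0.037).

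All 43 genes had a difference below 0 in that comparison (median -0.25, all genes -0.01), and 24 had an unadjusted p under 0.05 (6.09% of all genes). The call of Cenpf was lost under scaling by library size, with a like difference of -0.39 (adjusted p = 0.107), and without -EIPA replicate 2 (-0.24, adjusted p = 0.616) or +EIPA replicate 1 (-0.26, adjusted p = 0.612). Without -EIPA replicate 1 edgeR called 14 genes lower (0.214% of all genes), and without +EIPA replicate 2 it called 5 lower (0.0529%), again with 1 library left in a group and its spread taken from the other group. Between enterocyte-like and stem-like cells 0 of 43 passed (0% of 13589 genes), 5 had an unadjusted p under 0.05 (17.7%), and the median was -0.42. That comparison also turned on 1 library, with 40 genes called lower without -EIPA replicate 1 (16% of all genes) and 2 called higher without -EIPA replicate 2 (4.11%), both with a single -EIPA library.

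The other genes of the cycle were read beside them. Of 58 other G2 and mitosis genes 0 passed in any class, with medians of -0.17 over all cells, 0.06 in stem-like, -0.13 in the progenitor-marker clusters, -0.06 in secretory progenitor-like, 0.02 in mature secretory-like and -0.40 in enterocyte-like cells. Of 46 S phase genes 0 passed either, with medians of -0.16, 0.03, -0.14, 0.07, 0.03 and -0.39. Over all cells all 46 S phase genes were below 0, and 11 had an unadjusted p under 0.05, as had 18 of the other G2 and mitosis genes.

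For Dox there was 1 library on each side, so values are given with intervals that cover counting error only and no test. Over all cells kept, the 43 genes summed to 4846 CPM in -Dox and 3551 CPM in +Dox. All 43 were lower in +Dox. Their log2 ratios had a median of -0.48 (all genes -0.02), and 6 were lower by 1.5-fold or more, as were 5.57% of all genes with 20 UMIs or more. The lowest ratios were those of Cdca3 (123 and 77.7 CPM, log2 ratio -0.66, 95% exact interval -0.69 to -0.64), Aurka, the kinase of spindle poles (31.7 and 20.3 CPM, -0.65) and Hmgb2 (1035 and 661 CPM, -0.65).

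The others past 1.5-fold were Cdc20, which activates the APC/C, Hmmr and Anp32e, a chaperone of the histone H2A.Z. Nearest to no change were Tubb4b (513 and 504 CPM, -0.03), Ndc80 (16.6 and 14.3 CPM, -0.21) and Ube2c (215 and 178 CPM, -0.27). The shares of the classes differed here too. The progenitor-marker clusters were 36.2% of -Dox and 22.8% of +Dox cells, stem-like cells 24.4% and 19.1%, mature secretory-like cells 10.7% and 22.1% and enterocyte-like cells 19.1% and 26.0%.

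Within stem-like cells the summed level was 6239 CPM in -Dox and 5615 CPM in +Dox, a smaller difference than over all cells. The median log2 ratio was -0.14 (all genes -0.05) and 0 genes were past 1.5-fold (4.35% of all genes were lower by that much). The intervals of 33 genes lay below 0 (31.5% of all genes with 20 UMIs or more) and those of 4 above it (16.6%), namely Ndc80 (23.1 and 26.6 CPM, 0.21), Ube2c (260 and 280 CPM, 0.11), Kif23, a motor of the central spindle, and Cenpf (176 and 182 CPM, 0.05). Mki67 stood at 300 and 277 CPM (-0.12) and Cdk1 at 117 and 112 CPM (-0.07).

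The progenitor-marker clusters had a median log2 ratio of -0.26 with 0 genes past 1.5-fold (4.71% of all genes lower). Secretory progenitor-like cells had -0.29 with 2 genes past it (4.9% of all genes lower), the depolymerizing kinesin Kif2c (28.4 and 17.2 CPM) and Ckap2l (50.2 and 31.5 CPM), and without called doublets -0.45 with 10 past it (5.92% of all genes lower). Mature secretory-like cells had -0.39 with 0 past it (4.35% of all genes lower), and -0.05 without called doublets. Without batch correction the progenitor-marker clusters held 8561 cells in -Dox and 760 in +Dox, in place of 6368 and 2751. In these cells 42 of 43 genes were lower by 1.5-fold or more (19.1% of all genes), and the part of the different choice of cells was not tested. Their median log2 ratio was -1.325, below the -1.02 of enterocyte-like cells under that setting.

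In the main clusters, enterocyte-like cells had the lowest median ratio of the 5 classes. Their summed level was 1884 CPM in -Dox and 1291 CPM in +Dox. The median log2 ratio was -1.09 (all genes -0.10) and 42 of 43 genes were lower by 1.5-fold or more, against 15.6% of all genes. The clusters that make up the class differed between these libraries: cluster 4, with the lowest level of the 3 larger ones, was 1305 of 3358 cells in -Dox and 1797 of 3136 in +Dox, and its part in the result was not tested. Mki67 stood at 64.7 and 26.8 CPM (-1.27, interval -1.37 to -1.18), Top2a at 80.3 and 38.0 CPM (-1.08), Cdk1 at 31.6 and 15.1 CPM (-1.07), Ccnb1 at 17.1 and 7.5 CPM (-1.19) and Plk1 at 12.4 and 5.79 CPM (-1.10). Tubb4b was the exception, with 443 and 584 CPM (0.40, interval 0.37 to 0.43), the same direction as with EIPA in this class. It makes up much of the class sum: the spindle and microtubule group was 31.0% of the enterocyte-like sum in -Dox and 50.2% in +Dox.

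Among the 3 larger enterocyte-like clusters the difference between the libraries was greatest in cluster 9, at 2729 CPM in -Dox and 1381 CPM in +Dox. Cluster 4 had 1345 and 978 CPM and cluster 8 had 2182 and 1818 CPM. Cluster 9 has few UMIs per cell, 0.346 of its libraries' median. Without it 41 genes were past 1.5-fold (14.7% of all genes lower), with a median of -1.03. The share of enterocyte-like cells with the program was 23.1% (21.6 to 24.7) in -Dox and 9.17% (8.17 to 10.2) in +Dox, and called doublets were 13.8% and 9.39% of the cells. Without called doublets the summed level of the class was 1058 CPM in -Dox and 936 CPM in +Dox, and 38 genes were past 1.5-fold (14.3% of all genes lower), with a median of -1.07.

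**Figure D5:**
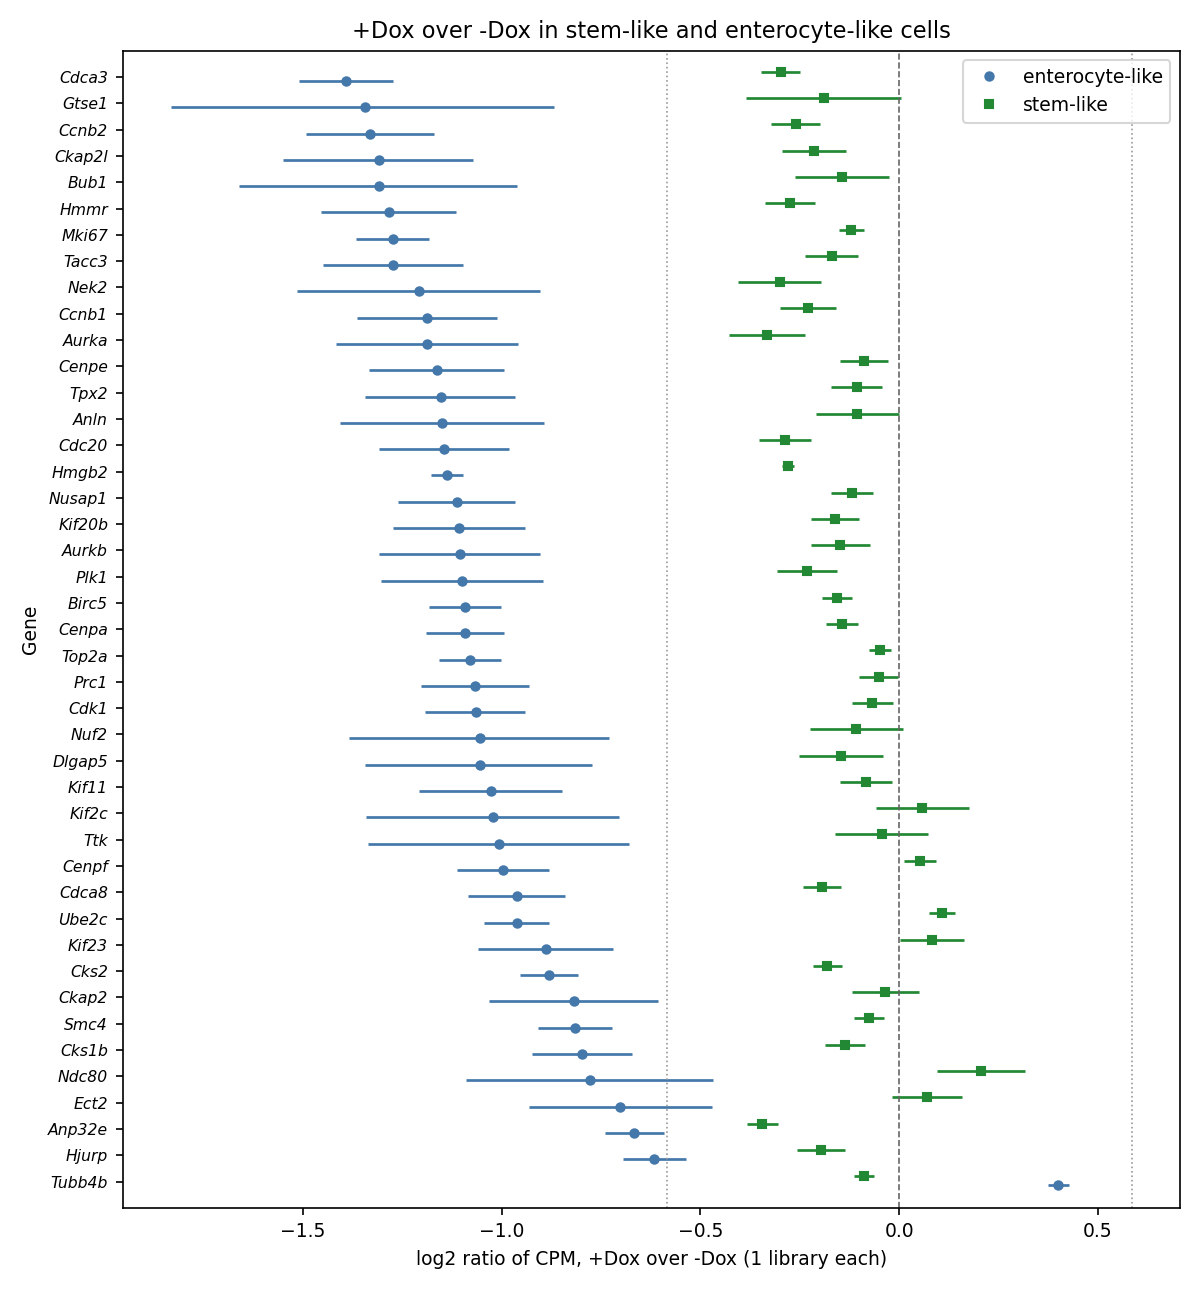
log2 ratio of CPM in +Dox over -Dox (1 library each) for each gene in enterocyte-like (circles) and stem-like cells (squares), with 95% exact counting intervals as lines and dotted lines at 1.5-fold. Stem-like cells lie between -0.34 and 0.21, and enterocyte-like cells between -1.39 and -0.62 except for Tubb4b at 0.40.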

How the data were processed

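Single cells of 6 organoid libraries were measured by droplet 3′ RNA-seq. The deposited files hold raw UMI counts per gene and cell, which the authors made with Cell Ranger 6.1.2 against mm10. From these counts, barcodes were kept at 1000 genes or more and a mitochondrial share below 20% (57.0% to 84.4% of barcodes, 161670015 to 239368573 UMIs per library). Clusters came from 3000 genes and 45 components with Harmony correction (own implementation in Python 3.11.15, numpy 2.4.6 and leidenalg 0.10.2, resolution 0.8), with 366 cell cycle genes left out. A cluster took a name with 3 or more markers above the other cells and 2 or more among its 20 leading genes. No cluster took the progenitor name, so unnamed clusters with 4 or more of its markers were compared by number. Simulated doublets served to call doublets, which were kept in the values given unless stated.

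UMIs were summed per library and class, scaled as counts per 1000000, and tested with edgeR 4.0.16 (quasi-likelihood, TMM, filterByExpr, Benjamini-Hochberg over all genes, threshold 0.05), with DESeq2 1.42.0 as an alternative. The interaction used the sums of both classes. On simulated data with 200 genes changed 2-fold, edgeR recovered 75% to 92.5% across the classes, with 2.12% to 9.64% false calls. DESeq2 recovered 76% to 87%, with 1.80% to 15.7% false calls. The changed genes were drawn from those with many UMIs, and the simulated spread between libraries was capped. No effect shared by libraries of 1 replicate number was simulated, nor any smaller change, so recovery of small changes is not known. Replicate numbers are taken here to mark the 2 WT preparations, which the labels do not state. Libraries that share a number departed together from the mean of their group (r = 0.69 over all cells, 0.71, 0.72, 0.42, 0.55 and 0.43 in stem-like cells, progenitor-marker clusters, secretory progenitor-like, mature secretory-like and enterocyte-like cells). The CRISPR libraries have no replicate and got no test. The level of the targeted gene is not reported here.

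The members and gene lists were chosen with earlier results of these data known. Genes named with values in every library were those past the threshold, the 3 with the lowest p in a class where none passed, the highest of each role group, Mki67, Cdk1, Prc1, Top2a, Ccnb1 and Plk1, and for Dox the 3 highest and 3 lowest ratios over all cells. Others that appear were picked after their values were seen. Of the 43 genes, 10 overlap another annotated gene on the same strand, of which 0 are protein-coding. Alternatives comprised scaling by library size, DESeq2, no filter, the replicate block, each library left out, doublets removed, stricter limits (2000 genes, 10%), uncorrected clusters, cell cycle genes kept, resolution 1.6, and other depths and cutoffs for the share of cells. Levels under these settings and the values without cluster 9 were added after the data were seen.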

Additional observations from a re-analysis of the deposited data

Results flagged for a closer look

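The EIPA effect on Cenpf differed between secretory progenitor-like and stem-like cells by -0.41 ± 0.09 on the log2 scale (edgeR interaction, adjusted p = 0.037). Fitted alone, its log2 fold change was 0.20 in stem-like and -0.19 in secretory progenitor-like cells, neither past the threshold. The alternatives run for this difference were scaling by library size and leaving out each WT library in turn. The sign was the same in each, and the call was lost under scaling by library size. A fit with a library left out has a group with no spread of its own, so no adjusted p from such fits is given here. Secretory progenitor-like cells were 2.12% to 2.82% of a library. No group held 4 or more libraries, so single libraries could not be tested as outliers.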

How the results depend on the processing

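With 2 libraries per EIPA group and 1 per Dox group, small differences can be missed, and the simulation changed genes 2-fold only. The intervals for Dox cover counting error only. In the main fit, which does not pair libraries, counts of EIPA calls among the 43 genes were 0 in each class. Under the alternatives they differed as follows. In this section, a count of calls above 0 without a share of all genes has that share beside it in the Results. Over all cells DESeq2 called 2 and the fit with the replicate block, which pairs libraries that share a number, called 5. The replicate block also called 6 in stem-like cells, 5 in the progenitor-marker clusters and 1 in secretory progenitor-like cells, and changed no other count of calls. In enterocyte-like cells 4 genes were called, all lower, with no filter on low counts (1.19% of all genes lower), and 0 to 11 when 1 library was left out. A library left alone in its group was assumed to vary like those of the other group. The median log2 fold change turned to -0.032 (library size scaling) and -0.014 (uncorrected clusters) in mature secretory-like cells, and in enterocyte-like cells ran from -0.69 to 0.11 when 1 library was left out (-0.69 without -EIPA replicate 1, 0.11 without -EIPA replicate 2).

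For the difference of the EIPA effect between enterocyte-like and stem-like cells, uncorrected clusters gave 39 calls, all lower (7.66% of all genes lower), on stem-like sums of 308 to 5763 cells per WT library, and leaving out 1 library gave 0 to 40, and the median then ran from -0.87 to 0.088, the ends being those without the first and the second -EIPA replicate. Between secretory progenitor-like and stem-like cells, library size scaling gave 0 calls and leaving out 1 library 0 to 14. Secretory progenitor-like cells could not be had in uncorrected clusters or with cell cycle genes kept, since no cluster took the name. For Dox, the count past 1.5-fold, all lower, was 42 in the progenitor-marker clusters (uncorrected, 19.1% of all genes lower, on 8561 -Dox and 760 +Dox cells), 10 in secretory progenitor-like cells (doublets removed, 5.92%), and 3 (stricter limits, 4.56%) and 12 (uncorrected, 4.51%) in mature secretory-like cells. The cause of these differences was not tested.

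The median share of cells with the program depends on its definition. With at least 3 genes it was 78.6% over all cells, 91.4% in stem-like cells, 85.7% in the progenitor-marker clusters, 86.3% in secretory progenitor-like, 66.7% in mature secretory-like and 46.1% in enterocyte-like cells. With at least 10 genes these were 34.2%, 46.4%, 44.4%, 41.3%, 14.0% and 4.62%. At 2000 UMIs they were 41.2%, 54.9%, 53.9%, 48.3% and 18.6% up to mature secretory-like cells, and without thinning 80.1%, 94.8%, 92.1%, 88.9%, 65.5% and 54.6%. Stem-like cells had 52.6% with cell cycle genes kept, and without doublets secretory progenitor-like cells had 61.3% and mature secretory-like cells 24.1%.

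The median summed level was 2078 CPM in stem-like cells and 2939 CPM in the progenitor-marker clusters with cell cycle genes kept, 4653 CPM in secretory progenitor-like cells at resolution 1.6, 1678 CPM (doublets removed) and 3053 CPM (uncorrected) in mature secretory-like cells, and 1022 CPM and 1822 CPM under the same settings in enterocyte-like cells. Of the values given for whole classes, 52 moved under an alternative and 125 did not. Of the other values, medians and single genes, 295 did not change, 20 moved, 4 reversed, 13 became significant and 3 lost significance.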
